A study of Mus musculus with 10 samples.

Results

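The genes described here encode the nuclear pore complex and the receptors that carry cargo through it. They were the 39 of 26857 entries of the expression table whose symbol begins with Nup, Ipo, Kpna, Kpnb, Xpo or Tnpo followed by a digit, with 1 exportin gene left out of the selection. Mouse V6.5 embryonic stem (ES) cells were infected with lentivirus carrying a hairpin against Rbfox2, either shFox2-1 or shFox2-2, or a control hairpin against luciferase (shLuc) or GFP (shGFP). All cultures were selected for 3 days (puromycin, 1 µg/ml) and then kept 24 h off the drug, and each hairpin had 2 biological duplicates that were pooled in 1 deposited value. For iCLIP, in which ultraviolet light links a protein to the RNA it touches, V6.5 ES cells carried lentivirus for human RBFOX2 under doxycycline control, either FLAG-HA-tagged (1 library) or untagged (1 control library). Both had 6 days of hygromycin at 150 µg/ml, 24 h of doxycycline at 1 µg/ml and 150 mJ/cm2 of light, and the untagged library had 7 more PCR cycles than the 16 of the tagged one. The protein mapped was thus an induced human one. The question behind the comparison was how Rbfox2, an RNA-binding splicing regulator, acts on the mRNAs of the cell.

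The nuclear pore complex is a ring-shaped channel through the nuclear envelope. Its scaffold rings hold nucleoporins with phenylalanine-glycine (FG) repeats, which line the channel and bind passing receptors. Importins carry proteins inward and release them when the GTPase Ran is in its GTP form, and exportins load their cargo together with Ran-GTP. In ES cells importin alpha subtypes are known to differ in the transcription factors they carry.

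Expression was given in FPKM, the fragments counted on a gene after division by its transcript length and by the depth of the library. Each hairpin value came with a confidence interval, and the depth itself was unknown. Rbfox2 itself (listed as Rbm9) stood at 24.7 FPKM in shLuc, 23.3 in shGFP, 8.56 in shFox2-1 and 7.21 in shFox2-2, so the targeted mRNA was lower in both knockdown hairpins. The values fitted the ES cell label, with Pou5f1 between 268 and 336 FPKM and all 8 ES cell markers found above 1 FPKM on average. Of the markers of other cell types, 5 of 6 fibroblast, 4 of 5 endoderm and 5 of 5 mesoderm genes found lay under 1 FPKM on average, while 6 neural genes, led by Tubb3, summed to 45.4 to 54.8 FPKM. Of these, Sox1 (3.38, 3.27, 1.48 and 2.22 FPKM with shLuc, shGFP, shFox2-1 and shFox2-2) and Nes (8.49, 9.69, 3.87 and 7.92) lay below both controls in both knockdown hairpins. Among the other markers averaging at least 1 FPKM, the endoderm gene Gata4 (1.64, 1.66, 1.52 and 1.33) also did so. The ES cell gene Tdgf1 (243, 248.7, 281.7 and 290.1) and the trophoblast marker Krt8 (19.5, 20.8, 39.0 and 23.1) lay above both controls in both. None of these genes passed limma, and Rbfox2 itself did not pass it. The 5 trophoblast markers, of which the keratins Krt8 and Krt18 passed 1 FPKM and Cdx2, Elf5 and Hand1 did not, summed to 33.5, 36.96, 64.2 and 37.5 FPKM in shLuc, shGFP, shFox2-1 and shFox2-2. Over the 12632 genes with a mean of at least 1 FPKM, the median log2(FPKM + 1) was 3.11, 3.18, 3.22 and 3.03 in the same order, so the typical gene read highest in shFox2-1 and lowest in shFox2-2.

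Levels are described first, on the FPKM scale, which is per length and can be compared between genes. Of the 39 entries, 38 averaged at least 1 FPKM. The exception was Nup210l, a paralog of Nup210 known mainly from testis, at 0.197 to 0.244 FPKM. The highest levels were those of Xpo1, the general exportin for proteins with leucine-rich export signals, with a mean of 141.5 FPKM, and Kpnb1, the importin beta that carries importin alpha and its cargo, with 125 FPKM. Nup93 (95.7 FPKM), Nup85 (94.7), Nup133 (83.6) and Nup88 (82.2) followed.

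Members of 1 subcomplex stood at unlike levels. In the outer ring, or Y complex, Nup85 and Nup133 lay above Nup37 (50.8 FPKM), Nup43 (32.0), Nup107 (25.7) and Nup160 (20.5). The interval of Nup85 lay above that of Nup133 in 1 of 4 hairpins, so the order of these neighbours was not resolved, whereas Nup133 lay above Nup37 in 4 of 4. The level of Nup133 is uncertain, because it has a low-data status in every hairpin and its locus in the table also covers Abcb10. In the inner ring, Nup93 lay above Nup205 (28.2 FPKM) in 4 of 4 hairpins, Nup205 and Nup188 (27.5) overlapped in every hairpin, and Nup155 (17.4) and Nup35 (5.31) followed. Among FG nucleoporins of the channel, Nup62, whose locus in the table also covers Atf5, averaged 42.4 FPKM, above Nup98 (18.01) in 4 of 4 hairpins, while Nup98 and Nup54 (16.7) were not separated in any. On the cytoplasmic side, Nup88 averaged 82.2 FPKM against 10.02 for Nup214. In the nuclear basket Nup153 averaged 27.0 FPKM and Nup50 averaged 19.1. The membrane-spanning Nup210, which is known to increase during differentiation, averaged 7.78 FPKM.

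The importin alpha adaptors, which recognise the classical import signal, spanned a narrow range. Kpna3 averaged 28.3 FPKM, Kpna4 20.7, Kpna1 18.5, Kpna6 15.0 and Kpna2 10.97. Kpna3 lay above Kpna4 in 3 of 4 hairpins, and each of the other neighbours was separated in 1 hairpin at most. The value of Kpna2 is uncertain, because a pseudogene copy, Kpna2-ps, can share its reads. Below Kpnb1, the importin beta family ran from Ipo9 (54.0 FPKM), Ipo4 (50.3) and Ipo7 (46.9) through Tnpo1 (33.5), Tnpo3 (32.3), Ipo8 (29.1) and Tnpo2 (26.4) to Ipo11 (14.4) and Ipo13 (8.44). No selected entry carried the symbol Ipo5, of this family, or Kpna7, of the adaptors, so neither gene is described. The Tnpo1 estimate for shFox2-1 carries a failed status in the authors' table, so this transportin gene is described but was not tested. Xpo1 stood far above the other exportins, Xpo6 (18.9 FPKM), Xpo4 (15.2) and Xpo7 (8.16).

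**Figure D1:**
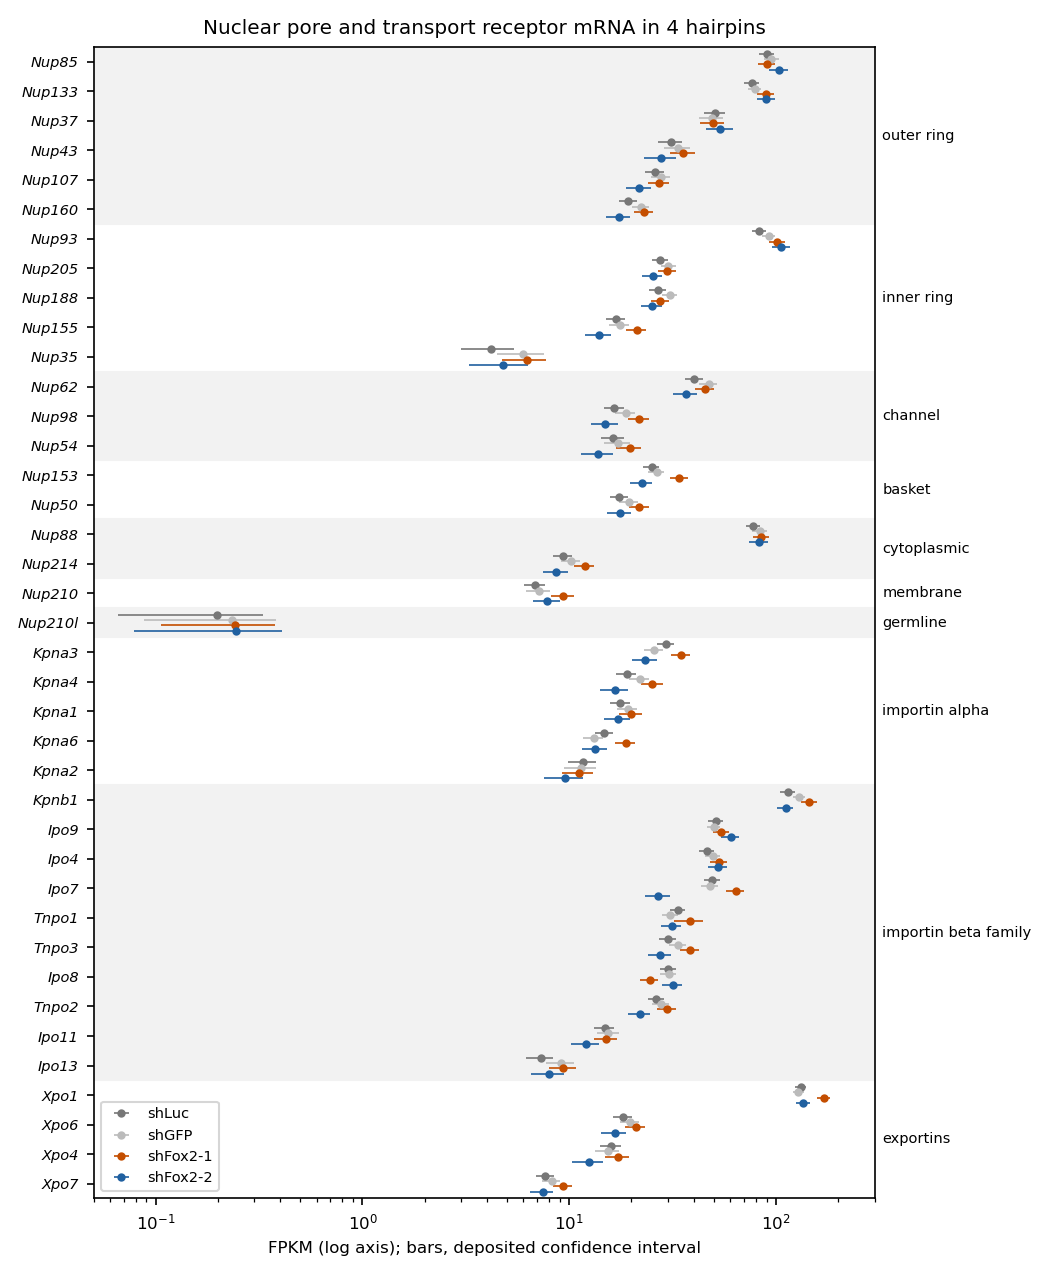
FPKM (log axis) of each of the 39 genes in the 4 hairpins, grouped by role and ordered by mean level; points are the deposited values and bars the deposited confidence intervals. Xpo1 and Kpnb1 are highest, Nup210l lies below 1 FPKM, and Ipo7 shows the widest gap between shFox2-1 (63.7) and shFox2-2 (26.98).

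Knockdown was then compared with control, with each hairpin as 1 value, so p-values reflect how far hairpins, rather than cultures, scatter. In such bulk RNA, fewer cells of a type and less RNA per cell cannot be told apart. None of the 38 tested genes passed limma on log2(FPKM + 1), where the background was also 0% of 20281 genes. The lowest limma adjusted p among them was 0.978, and 0 of 38 had an unadjusted p under 0.05 against 4.48% of all genes tested. Rbfox2, the targeted gene, did not pass this fit either, with a limma adjusted p of 0.913 and an unadjusted p of 6.8e-05. The adjusted calls therefore cannot tell an unchanged gene from one that changed as much as Rbfox2. No conclusion is drawn from their absence. Log2 fold changes ran from -0.22 (Ipo7) to 0.26 (Nup210). Among the 37 tested genes with a mean of at least 1 FPKM the median was 0.04, against -0.01 over the 12632 genes at that level, with 23 above 0 and 14 below, where 47.6% of those genes were above 0. In none of the 37 did both knockdown intervals lie above both control intervals, which 0.174% of the 12632 genes met, or below them, which 0.119% met.

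Values without their intervals separated more often. Both knockdown values lay above both control values in 6 of 37 genes, where 14.3% of the 12632 genes did so, and below both in 1 of 37, where 17.8% did. The count of 6 is near the background share. Among genes averaging at least 10 FPKM, 5 of 33 lay above, against 18.4%, and 1 below, against 13.4%. The count of 1 became 5 when each hairpin was centred on its median gene, where the background was 16.7%, with 8 of 37 then higher against 18.6%. Centring ended the call of Ipo9 and added Kpna1, Nup50 and Xpo7 above, and Ipo11, Nup107, Nup188 and Nup205 below. An exact test of 2 against 2 values cannot reach a p below 0.33, so no single gene was tested that way.

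The 6 genes were Nup93, Nup133 and Nup210 of the pore and Xpo1, Ipo9 and Ipo4 of the receptors. Nup93, a linker of the inner ring (mm9 chromosome 8, 96738451 to 96838966), had 83.0 FPKM (interval 76.3 to 89.8) with shLuc, 92.3 (85.3 to 99.4) with shGFP, 101 (92.3 to 110) with shFox2-1 and 106 (95.96 to 116) with shFox2-2. Its knockdown values were higher but their intervals overlapped that of shGFP, with a log2 fold change of 0.24 (standard error 0.11). Nup133, which anchors the Y complex (chromosome 8, 126421021 to 126507022), had 76.5 and 78.9 FPKM with shLuc and shGFP, then 89.3 and 89.9 with shFox2-1 and shFox2-2. Its log2 fold change was 0.20 (standard error 0.096). All 4 Nup133 values carry a low-data status, and its locus in the table also covers Abcb10, with which it can share reads.

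Nup210 (chromosome 6, 90963063 to 91066788) stood at 6.83 FPKM in shLuc, 7.11 in shGFP, 9.34 in shFox2-1 and 7.83 in shFox2-2. Only the shFox2-1 interval (8.203 to 10.49) cleared both controls, and the log2 fold change was 0.26 (standard error 0.15), the largest of these genes. Xpo1 (chromosome 11, 23156040 to 23197597) read 131.9 FPKM with shLuc, 128 with shGFP, 170.3 with shFox2-1 and 135.5 with shFox2-2. Here too the interval of shFox2-1 (158.5 to 182) lay clear of the controls, and that of shFox2-2 (125 to 146) did not, with a log2 fold change of 0.22 (standard error 0.13). Without shFox2-1 the log2 fold change of Xpo1 was 0.06, and without shFox2-2 it was 0.39.

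Ipo9, an importin of histones and other basic proteins, read 51.3 and 50.0 FPKM with the control hairpins, against 54.4 with shFox2-1 and 60.3 with shFox2-2, and its shFox2-1 value no longer exceeded both controls after centring. Ipo4, another importin of the beta family, stood at 46.3 and 49.5 against 52.97 and 52.4 FPKM. The gene below both controls was Kpna2, with 11.7 and 11.5 FPKM in shLuc and shGFP, then 11.1 in shFox2-1 and 9.59 in shFox2-2, and with every interval overlapping. Nup210l also had both knockdown values above both controls, at a level too low to weigh.

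The hairpins were next described one at a time, both against the same 2 controls. In shFox2-1, 28 of 37 genes lay above both controls, where 50.2% of the 12632 genes did, and 2 lay below both, where 28.1% did. Centred on the median gene, these counts were 23, against 38%, and 8, against 41.4%. In shFox2-2, 23 of 37 lay below both controls, where 54.2% of genes did, and 9 lay above both, where 23.4% did. Centred, they were 19, against 34.2%, and 13, against 41.7%. Against the control mean the median log2 difference was 0.18 in shFox2-1 and -0.18 in shFox2-2, beside 0.07 and -0.09 over all 12632 genes. The background thus leans the same way in each hairpin, and by less than the median of these genes. Centred on the median gene, the medians were 0.096 in shFox2-1 and -0.067 in shFox2-2, beside -0.0098 and 0.02 over all genes.

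By their intervals, fewer genes stood apart from the controls. The shFox2-1 interval lay above both control intervals in 5 of 37 genes (Ipo7, Kpna6, Nup153, Nup210 and Xpo1), where 5.44% of the 12632 genes did, and below both in 1, Ipo8, where 2.11% did. The shFox2-2 interval lay above both in 0 of 37, where 0.348% did, and below both in 1, Ipo7, where 1.98% did. Centred on the median gene, the shFox2-1 interval lay above in 2, Nup153 and Xpo1, against 3.15%, and the shFox2-2 interval in 3, Ipo9, Nup133 and Nup93, against 1.99%. Among genes averaging at least 10 FPKM, the shFox2-1 interval lay above both controls in 4 of 33, against 8.68%. After centring it did so in 2 of 33, against 4.98%, so these counts were nearer the background share at that level.

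Together, 17 of 37 genes lay above both controls in shFox2-1 and below both in shFox2-2, where 25.6% of the 12632 genes did. Among genes averaging at least 10 FPKM, the counts were 16 of 33 against a background of 25.8%. Centred on the median gene, 12 of 37 did so against 12%. Before centring, the 17 came from most parts of the pore and transport machinery: Nup43 and Nup160 of the outer ring, Nup155 of the inner ring, Nup98 and Nup54 of the channel, Nup214, Nup153, the adaptors Kpna1, Kpna3 and Kpna4, the receptors Kpnb1, Ipo7, Tnpo2 and Tnpo3, and the exportins Xpo4, Xpo6 and Xpo7. The 12 after centring lacked Kpna1, Kpna3, Kpnb1, Xpo4 and Xpo7, of which Kpna1 and Xpo7 then lay above both controls in both knockdown hairpins. The reverse order, with shFox2-2 above and shFox2-1 below both controls, was found in 1 gene, Ipo8, where 5.17% of genes showed it, and after centring in 3, Ipo8, Nup37 and Nup85, against 15.6%.

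The intervals of the knockdown hairpins were also set against each other. The shFox2-1 interval lay above that of shFox2-2 in 15 of 37 genes, against 13% of all 12632 genes and 18.7% of the 5417 genes averaging at least 10 FPKM. Centred on the median gene, 5 of 37 did so against 4.96%, and 5 of 33 against 7.37% among genes averaging at least 10 FPKM. They were Ipo7, Kpna3, Kpna4, Nup153 and Nup155. The shFox2-1 interval lay below that of shFox2-2 in 1 of 37, Ipo8, against 1.97% of genes, and after centring in 3, Ipo8, Ipo9 and Nup85, against 6.44%. Between the controls no interval of the 37 genes was separated, where shGFP lay above shLuc in 0.997% of genes and below in 0.19%. The median half-width of the intervals of these genes was 9.78% of the value in shLuc, 10.5% in shGFP, 10.9% in shFox2-1 and 13.5% in shFox2-2.

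Nup153, the FG nucleoporin of the basket, showed this pattern at 25.02 FPKM in shLuc (interval 22.7 to 27.3), 26.5 in shGFP (24.0 to 28.9), 33.98 in shFox2-1 (30.6 to 37.4) and 22.5 in shFox2-2 (19.8 to 25.2). Its shFox2-1 interval lay above the other 3, and those 3 overlapped. Kpna3 read 29.4 FPKM with shLuc, 25.8 with shGFP, 34.7 with shFox2-1 and 23.3 with shFox2-2, and Kpna4 read 18.9, 21.9, 25.2 and 16.7 FPKM in that order. For both, shFox2-2 gave the lowest value and shFox2-1 the highest. Kpna6, an importin alpha of broad expression, read 14.8 FPKM with shLuc, 13.1 with shGFP, 18.8 with shFox2-1 and 13.4 with shFox2-2, so only shFox2-1 stood apart. Ipo8, an importin also tied to Argonaute proteins, had the opposite order with 30.2 and 30.3 FPKM in shLuc and shGFP, then 24.5 (interval 21.95 to 26.99) in shFox2-1 and 31.6 in shFox2-2.

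The other members are given with their FPKM in the order shLuc, shGFP, shFox2-1 and shFox2-2. In the outer ring Nup85 read 90.3, 95.1, 90.6 and 103.0, Nup37 read 50.9, 49.1, 49.3 and 53.9, and both were highest in shFox2-2. Nup43 read 31.0, 33.5, 35.7 and 27.9, Nup107 read 26.1, 27.7, 27.3 and 21.8, and Nup160 read 19.3, 22.2, 23.0 and 17.4, all lowest in shFox2-2. The Y complex, which helps to build the pore scaffold and binds kinetochores in mitosis, thus held members of both orders. In the inner ring, which joins the outer rings to the channel, Nup205 read 27.5, 30.2, 29.8 and 25.3, Nup188 read 26.8, 30.6, 27.6 and 25.05, Nup155 read 16.8, 17.5, 21.2 and 14.0, and Nup35 read 4.20, 6.01, 6.22 and 4.80. Nup93 was the only one of the 5 inner ring genes that was highest in shFox2-2.

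In the channel, Nup62 read 40.2, 47.2, 45.4 and 36.6, Nup98 read 16.6, 18.8, 21.8 and 14.9, and Nup54 read 16.3, 17.2, 19.6 and 13.8. All of these FG nucleoporins had their lowest value in shFox2-2. Nup50, a basket protein that helps to release importin alpha from its cargo, read 17.5, 19.5, 21.8 and 17.6. Nup88 read 77.8, 83.4, 84.7 and 82.9, a narrow range, and Nup214, its FG partner on the cytoplasmic face, read 9.32, 10.2, 11.9 and 8.62.

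Among the receptors, Kpna1 read 17.7, 19.2, 19.9 and 17.2 FPKM. Kpnb1 read 114.2, 129.9, 144.6 and 111.4, and its shFox2-1 interval lay above that of shFox2-2. Tnpo3, the receptor of serine-arginine-rich splicing factors, read 29.95, 33.5, 38.3 and 27.6, and Tnpo2, a transportin like Tnpo1, read 26.4, 27.7, 29.7 and 21.9. Both were highest in shFox2-1 and lowest in shFox2-2. Tnpo1 read 33.6, 30.8 and 31.2 in the hairpins with a usable status. Ipo11 read 14.8, 15.5, 15.1 and 12.1, and Ipo13, which works in both directions, read 7.27, 9.11, 9.34 and 8.01. The exportin Xpo4 read 15.95, 15.4, 17.2 and 12.4, and Xpo7 read 7.67, 8.22, 9.32 and 7.43, again lowest in shFox2-2.

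Ipo7 had the widest spread. This importin of ribosomal proteins and of histone H1 (mm9 chromosome 7, 117161938 to 117198628) read 49.3 FPKM (interval 44.8 to 53.8) with shLuc, 47.7 (43.3 to 52.2) with shGFP, 63.7 (57.3 to 70.2) with shFox2-1 and 26.98 (23.3 to 30.7) with shFox2-2. The controls agreed closely, and the knockdown hairpins lay clear of them on opposite sides. Only 58 of the 12632 genes, or 0.459%, had the shFox2-1 interval above and the shFox2-2 interval below both controls, and Ipo7 was the 1 gene of this set among them. The value in shFox2-2 was 42.3% of that in shFox2-1, a log2 difference of 1.21 that ranked 38 of 12632. The highest of the 4 values was 2.36 times the lowest for Ipo7, while the next widest ratio among the 37 genes was 1.52. The log2 fold change of knockdown over control, -0.22 with a standard error of 0.38, therefore averages opposite values. Rbfox2 mRNA itself read 8.56 FPKM in shFox2-1 and 7.21 in shFox2-2, and the cause of the Ipo7 split was not tested. Centred on the median gene, the shFox2-2 interval of Ipo7 still lay below both controls and the shFox2-1 interval no longer cleared both.

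**Figure D2:**
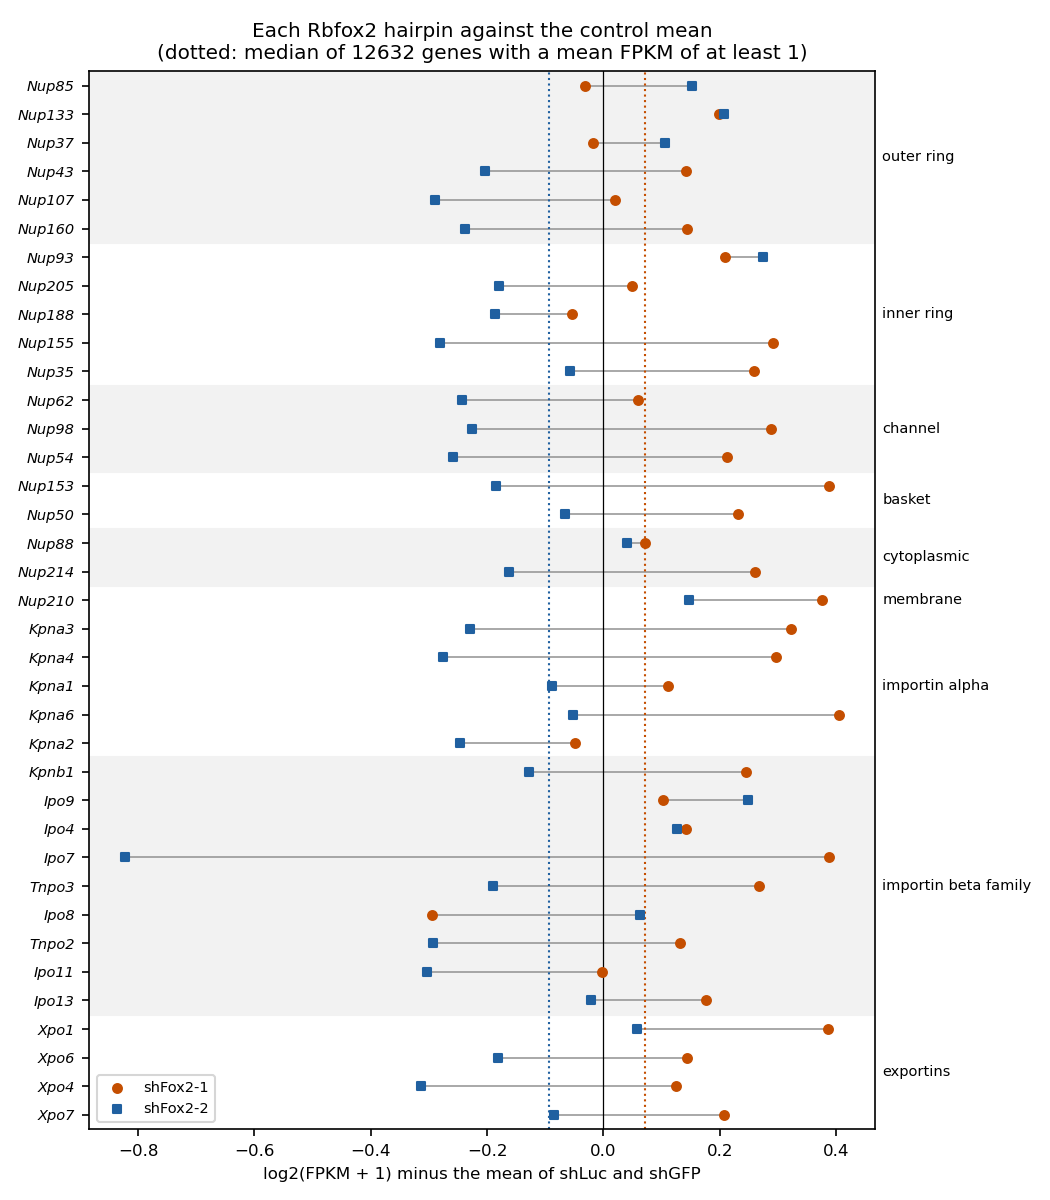
Difference of each Rbfox2 hairpin from the mean of shLuc and shGFP on the log2(FPKM + 1) scale, for the 37 tested genes with a mean of at least 1 FPKM; circles are shFox2-1, squares shFox2-2, and dotted lines the medians over all 12632 genes (0.07 and -0.09). Most pairs straddle 0 with shFox2-1 on the right, and Ipo7 spans from -0.82 to 0.39. Nup93, Nup133, Nup210, Nup88, Xpo1, Ipo4 and Ipo9 have both points right of 0.

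By role, the outer ring had 3 of 6 log2 fold changes above 0, the inner ring 3 of 5, the channel 1 of 3, the cytoplasmic side 2 of 2, the basket 2 of 2, the importin alpha adaptors 4 of 5, the tested importin beta family 5 of 9 and the exportins 2 of 4, beside the 47.6% of all genes. In shFox2-1 the median difference from the control mean, 0.07 over all genes, was 0.08 for the outer ring, 0.21 for the inner ring and for the channel, 0.17 for the cytoplasmic side, 0.31 for the basket, 0.30 for importin alpha, 0.14 for the importin beta family and 0.17 for the exportins. In shFox2-2, where all genes had -0.09, the same groups had -0.05, -0.18, -0.24, -0.06, -0.13, -0.23, -0.13 and -0.13. Nup210, alone in its group, was at 0.38 and 0.15, above the control mean in both hairpins. The summed ES cell, fibroblast, endoderm and trophoblast markers were each also highest in shFox2-1, the trophoblast sum through Krt8 and Krt18. The fibroblast and endoderm sums there were only 3.05 and 3.26 FPKM. The neural sum was highest in shGFP (54.8 FPKM, against 54.1 in shFox2-1). The mesoderm sum was highest in shLuc (3.45) and lowest in shFox2-1 (1.75). The part of these levels in the values was not tested.

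The other genes of the pathway gave no call either, in a limma fit that the targeted Rbfox2 did not pass. Of 46 genes with a mean of at least 1 FPKM in 5 lists (other nucleoporins, other receptors, the Ran cycle, mRNA export and the nuclear envelope), none passed limma and none had separated intervals, while 7 had both knockdown values above both controls and 5 below, against background shares of 14.3% and 17.8%. The same shares are the background of each list below. Among the other nucleoporins, 3 of 12 lay above and 0 below, and the 2 most abundant were Aaas, mutated in triple A syndrome, at 53.4 and 54.0 FPKM against 56.4 and 60.1, and the mRNA export factor Rae1 at 53.4 and 54.3 against 52.5 and 61.2. Among other receptors, 1 of 9 lay above and 2 below. Cse1l, which returns importin alpha to the cytoplasm, read 110.6 and 117 FPKM with the control hairpins, 134 with shFox2-1 and 115.5 with shFox2-2, and Nutf2, the import factor of Ran, at 59.9 and 62.5 against 69.7 and 70.8.

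In the Ran cycle, 1 of 5 genes lay above and 1 below. Ran read 101 and 107.5 FPKM with the control hairpins, 119.8 with shFox2-1 and 104.5 with shFox2-2, and its cofactor gene Ranbp1 at 101.7 and 117 against 96.9 and 86.3. In mRNA export, 2 of 12 lay above and 1 below, with the helicase gene Ddx39b (listed as Bat1a) at 57.1 and 64.7 against 63.2 and 53.2 FPKM and Thoc5 at 35.9 and 37.7 against 38.5 and 40.1. In the envelope list, 0 of 8 lay above and 1 below. Lmnb1, a B-type lamin gene, stood at 83.3 and 103.6 FPKM against 111 and 78.1, and Tmpo at 79.8 and 76.5 against 86.8 and 78.0. Tpr, the large filament protein of the basket, was named after its values were seen. It read 34.8 FPKM with shLuc, 34.4 with shGFP, 38.1 with shFox2-1 and 18.9 with shFox2-2.

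Binding of RBFOX2 to these transcripts was read from the authors' iCLIP clusters, a list kept for its enrichment against the untagged library. Coverage, fold and q-value are the authors' own values for each cluster and are used only within this list. Of 35639 clusters, 236 lay in the loci of these genes, at 232 distinct summits, and 35 of the 39 loci held at least 1. The 4 loci without a cluster were those of Nup43, Ipo4, Ipo13 and Nup210l. All 236 lay on 1 strand per locus. The gene IDs that the authors give to clusters also place 236 with these genes, but in 34 of the 39, with none for Nup62 (7 by its locus), 18 for Tnpo1 (13), 10 for Nup155 (8), 10 for Kpna4 (9) and 10 for Ipo11 (11). The 7 clusters in the Nup62 locus lay at 4 distinct summits. Of these 7, 3 carry the gene ID of Il4i1 and the rest an ID for which no symbol was found, so their assignment to Nup62 is uncertain. An mm9 genome and annotation were not used here, so no cluster is assigned to an exon or intron and its sequence is not shown.

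Among the 37 tested genes with a mean of at least 1 FPKM, 34 loci held a cluster, where 54.7% of the 12632 genes did, 18 held 5 or more, where 17.9% did, and 9 held 10 or more, where 6.55% did. These loci are long and well expressed, with a median of 48.2 kb and 26.4 FPKM beside 19.7 kb and 7.81 FPKM over all 12632 genes. Among genes with a mean of at least 10 FPKM and a locus of at least 20 kb, 26 of 26 held a cluster, where 88.4% of 2523 genes did, 16 held 5 or more, where 47% did, and 8 held 10 or more, where 18.9% did. Per length, the 37 loci had a median of 0.918 clusters per 10 kb, beside 0.231 over the 12632 genes. Loci with a cluster had a median of 0.987 clusters per 10 kb, beside 0.9 over all such loci of the 12632 genes. Across the 37 genes the number of clusters followed locus length with a Spearman rho of 0.59 (0.64 over the 12632 genes) and mean FPKM with 0.15 (0.22). These points share 1 library.

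**Figure D3:**
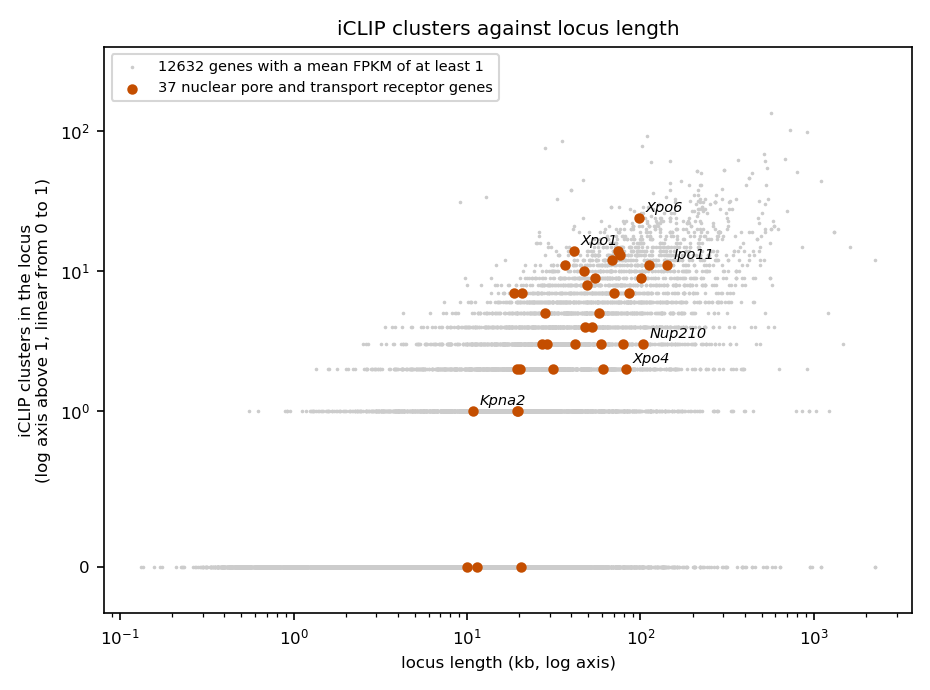
Number of iCLIP clusters in a locus (log axis above 1) against locus length in kb (log axis); grey points are the 12632 genes with a mean of at least 1 FPKM and orange points the 37 nuclear pore and transport receptor genes among them. Xpo6 holds 24 clusters over 98.7 kb and Xpo1 14 over 41.6 kb, while Xpo4 holds 2 over 82.7 kb.

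Cluster numbers varied widely among the exportins. Xpo6, the exportin of actin and profilin (chromosome 7, 133245231 to 133343922), held 24 clusters, the most of any of these genes, and Xpo1 held 14 in a locus of 41.6 kb. Xpo7 held 11, and Xpo4 held 2 in a locus of 82.7 kb. Among the importin alpha adaptors Kpna3 held 14 clusters, Kpna4 9, Kpna1 4, Kpna6 3 and Kpna2 1. Tnpo1 held 13 clusters, Tnpo3 12, and Ipo7 and Ipo11 11 each. Of the nucleoporins, Nup98 held 13, Nup153 10, Nup93 9 and Nup155 8.

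The median coverage of these clusters was 397 against 374 over all clusters, while 4 of the 236, or 1.70%, were among the top 5% of the list by coverage. Median width was 93.5 against 91 bases. In 38.1% of them the untagged library had no coverage, against 44.9% of all clusters, and where it had some the median fold was 3.34 against 3.67. Clusters under 2-fold made up 12.7%, against 11.7% of all. The strongest cluster lay in Nup93, at chr8:96740736-96741609 on the plus strand, with a coverage of 19427 and 9.67-fold over the untagged library. Its summit was 2.85 kb from the 5′ end of the 100.5 kb locus, it held 75.7% of the summed cluster coverage of the gene, and it ranked 342 in the whole list, the only one of the 236 within the top 1%. A further Nup93 cluster at chr8:96781135-96781487 had a coverage of 4112 (12.24-fold).

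Xpo6 held the next strongest, at chr7:133258364-133259075 on the minus strand, with a coverage of 14105 (7.42-fold), 85.3 kb from the 5′ end and 13.4 kb before the 3′ end of the locus. In Tnpo1 a pair of partly overlapping clusters, chr13:99612628-99613453 and chr13:99612301-99612651, had coverages of 13142 (2.90-fold) and 8024 (2.95-fold). Their summits lay 1.11 and 0.28 kb before the 3′ end of the locus. In Nup210 the cluster at chr6:91038413-91038883 had a coverage of 4056 and, at 36.2-fold, the highest fold of these 6.

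Ipo7, whose mRNA split between the hairpins, held 11 clusters from 2.15 to 27.6 kb of its 36.7 kb locus. The untagged library had coverage at all 11, and the highest coverage, 2617, was at chr7:117188677-117188983 (3.90-fold). The highest fold in this locus, 182.75, belonged to a cluster of coverage 731 at chr7:117164023-117164130. Xpo1 had clusters from 0.154 to 40.3 kb, the first 2 of them within the first kilobase.

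Over the 37 genes, each locus was cut into 3 equal parts, and 31.4% of 223 clusters lay in the 5′ part, 33.6% in the middle and 35.0% in the 3′ part, beside 33.6%, 31.3% and 35.2% of the 33250 clusters in loci of the 12632 genes. Within 2 kb of the locus start lay 4.04%, against 3.76%, and within 1 kb of its end 6.28%, against 6.55%. The clusters near a start were in Nup93, Nup35, Nup37, Xpo1, Kpnb1, Kpna3 and Ipo11. In Kpna4, 5 of 9 clusters lay within 1.17 kb of the 3′ end.

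**Figure D4:**
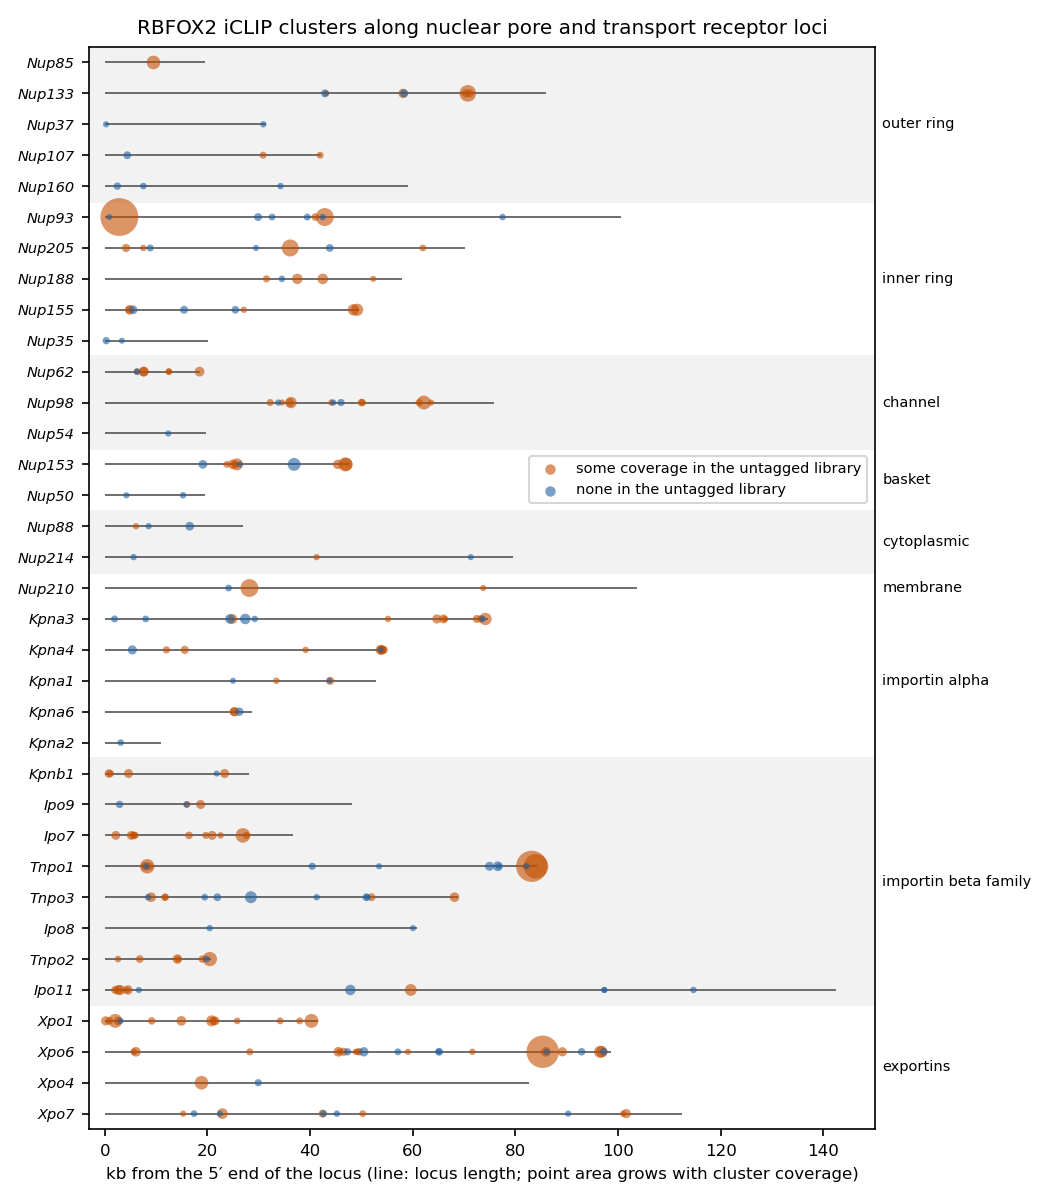
Position of the iCLIP clusters along each locus, in kb from its 5′ end, with the locus drawn as a line and the area of each point growing with cluster coverage; orange points had some coverage in the untagged library and blue points none. The largest points are those of Nup93 near the 5′ end (coverage 19427), Xpo6 (14105) and Tnpo1 near the 3′ end (13142), and the 11 Ipo7 points are all orange.

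Binding and the knockdown values were set side by side. The 18 genes with 5 or more clusters had a median log2 fold change of 0.02 and the 19 with fewer had 0.05, beside 0.02 and -0.02 over the 12632 genes. Of the 6 genes above both controls in both knockdown hairpins, 5 held a cluster and 3 held 5 or more, namely Nup93, Nup133 and Xpo1. Ipo4, also among the 6, held none. Xpo6, with the most clusters, read 18.2 FPKM with shLuc, 19.6 with shGFP, 20.99 with shFox2-1 and 16.6 with shFox2-2, with all intervals overlapping those of the controls. The table gives 1 value per gene, so the use of exons was not measured.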

How the data were processed

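Expression values were deposited by the authors as FPKM with confidence bounds and a status, 1 value per hairpin pooling 2 libraries, per the file headers. TopHat2 2.0, Cufflinks 2.1.1 and the build mm9 stand in the submitters' processing notes, while the gene annotation and how hairpins were scaled to each other are not given in the sources used here. Each iCLIP cluster carries a coverage, a fold against the untagged control and a q-value, deposited by the authors in 1 joined field, per the file headers.

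Of 26857 entries, 105 with a failed status and those at 0 FPKM throughout were left out, leaving 20281 for limma 3.58.1 run in R 4.3.3 with its trend option on log2(FPKM + 1), which understates folds of low genes. Benjamini-Hochberg adjustment covered all of them. The procedure was tested on simulated data. The noise there was set from the spread between the control hairpins, so the gap between the knockdown hairpins was not part of that test. Intervals were compared as deposited. Clusters were given to a gene by overlap with its locus, the strand being that of its own clusters. A symbol was found for 98.8% of cluster IDs. Cluster starts are printed counting from 1.

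The genes, role groups and lists were chosen with earlier results of these data known. Genes were named by fixed rule: those not overlapping between knockdown and control, the 2 most abundant per group, the 8 with most clusters (9 with ties) and the 6 strongest clusters; the members of the hairpin split, Tpr and other further names were chosen after their values were seen. Older symbols were matched through the RefSeq table of GRCm38.p6. Alternatives were the pseudocount, level and status filters, centring, no trend, each hairpin left out, and how clusters were counted.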

Additional observations from a re-analysis of the deposited data

Results flagged for a closer look

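The 2 Rbfox2 hairpins differed in Ipo7, with the deposited interval of shFox2-1 above and that of shFox2-2 below both controls, a log2 difference of 1.21. The difference was not tested, since each hairpin has 1 pooled value. Centred on the median gene, the shFox2-2 interval still lay below both controls, but the shFox2-1 interval no longer cleared both.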

How the results depend on the processing

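No gene of the set passed limma under any alternative run. Rbfox2 did not pass the main fit, so the absence of calls does not show that these genes were unchanged. At an unadjusted limma p under 0.05 there were 0 genes in each fit with 4 hairpins, against 4.48% of all genes in the main fit. Of the tested genes, 7 (Nup210l included) had both knockdown values above both controls. The count was 8 after centring on the median gene, without Ipo9 and Nup210l, and 9 to 29 when 1 hairpin was left out. It was 29 without shFox2-2, where 50.2% of the 12632 genes lay above both controls, and 12 without shGFP. No share over all genes was computed with a control hairpin left out. The 1 gene below both became 5 after centring and 1 to 23 with 1 hairpin left out. There were 23 without shFox2-1, where 54.2% of the 12632 genes lay below both controls, and 2 without shFox2-2, where 28.1% did. Without shLuc there were 6. Genes with separated intervals numbered 0 to 6 in those fits, with 6 without shFox2-2, 1 without shFox2-1 and 1 without shGFP. Over the 12632 genes, the shFox2-1 interval lay above both controls in 5.44% and below in 2.11%. The shFox2-2 interval did so in 0.348% and 1.98%. Among genes averaging at least 10 FPKM, the shFox2-1 interval lay above both controls in 8.68%. A lone hairpin was assumed to vary like the others. The median log2 fold change over the 38 genes was 0.04, and -0.17 to 0.16 with 1 hairpin left out. Ipo7 turned from -0.22 to 0.39 without shFox2-2 and was -0.82 without shFox2-1. Clusters numbered 148 at 4-fold or more and 90 with no coverage in the untagged library, in place of 236. Whole-cluster overlap gave 236, as did cluster gene IDs, which place partly different clusters. Centring and the last cluster count were chosen, for the single hairpins and that count, after seeing the data. The cause of these changes was not tested, beyond fewer hairpins or clusters entering. Unknown depth limits the precision of each FPKM value to its deposited interval. No paired analysis was possible because the table holds 1 value per hairpin, with no value per replicate number.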
